A study of Homo sapiens with 8 samples.

Results

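The sites described here are RNA stretches where Halo-tagged PTB, the polypyrimidine tract binding protein, gave peaks after UVA crosslinking, that a published iCLIP map of PTB also held, and that the UVC arm of the same GoldCLIP experiment did not. Members were chosen from the deposited peak lists. UVA peaks lying within 20 nt on one strand were merged into 70110 sites. Sites were kept if they met an iCLIP peak of their own strand by 1 nt or more and met no peak of UVC-crosslinked PTB, PTB without UV or UVC-crosslinked YFP. This left 10167 sites, which is 14.5% of all merged UVA sites (exact 95% interval 14.2 to 14.8). They are called UVC-free sites below. Asking iCLIP to cover at least 50% of the site left 6708, and keeping only UVA and iCLIP peaks at or above their list's median score left 4701. A filter at a score of 100 in both, chosen after seeing the data, left 2482. The choice rests on measured peaks, so their presence and absence in these lists is a description and carries no test.

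The study crosslinked human 293T cells, an embryonic kidney line, that carried Halo-PTB or, as a control, Halo-tagged yellow fluorescent protein (YFP). The Halo tag reacts with a ligand on beads and holds the protein there covalently. Titles place 2 samples in each of 4 groups: Halo-PTB with UVC, Halo-PTB with UVA, Halo-PTB without UV, and Halo-YFP with UVC. A single peak list was deposited per group, with its replicates joined. The iCLIP list was made by the submitters from another study's samples, and its cells are not named in the sources used here. Cells of all groups were transgenic and grown with puromycin. The promoter and the number of clones are not given, and the labels do not say whether a photoreactive nucleoside was added before UVA. Libraries ran on either of 2 Illumina platforms without a label saying which, so platform and wavelength cannot be told apart. The lists hold no expression values, so the cell line could not be checked against marker genes. Depth is unknown, no spread between replicates can be given, and intervals below cover counting error only.

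PTB is an abundant nuclear RNA-binding protein with several RNA recognition domains that contact short pyrimidine-rich elements. It is best known for repressing alternative exons from flanking introns, and it also acts in 3' end formation, RNA stability and internal initiation of translation. Crosslinking and immunoprecipitation (CLIP) freezes such contacts with light: UVC joins natural bases to nearby amino acids, while UVA is generally used with a photoreactive nucleoside. In iCLIP the reverse transcriptase often stops next to the crosslinked base, so reads mark the contact closely. Positions are in hg19. No genome or annotation of that build was used here, so sites are named by position and strand, and no gene or sequence is printed.

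Most of the positions that UVA and iCLIP shared had no UVC peak, but this share was lower than among UVA sites without iCLIP. Of the merged UVA sites, 13286 (18.95%) lay on an iCLIP peak. UVC peaks were missing from 10218 of these (76.9%, interval 76.2 to 77.6). Among UVA sites without iCLIP, 89.9% lacked a UVC peak, and over all UVA sites 87.4% did. Control peaks then removed 51 sites (0.499%), from control lists of only 2341 (no UV) and 1080 (YFP) merged sites. The UVC-free sites took up 13438 UVA peaks (16.1% of that list) and met 11107 iCLIP peaks (19.1% of that list). The plus strand held 51.3% of them (interval 50.3 to 52.2).

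For comparison, 2932 UVA sites lay on peaks of both other PTB lists and on no control peak (3-list sites), and 50921 UVA sites lay on no iCLIP, UVC or control peak (UVA-only sites). UVC-free sites stood between these classes in UVA score, a value of the authors' peak calling. At nearly all peaks with a p-value above 0 the score rises as the p-value falls, and for peaks with a p-value of 0 this is unknown. The highest printed score is 1000, taken here as a limit, and peaks printed with a score and a p-value of 0 were assumed to lie at it. Of 318 UVC-free sites at the UVA limit, 13 are there only by this assumption, as are 2 of 31 at the iCLIP limit. The median UVA score of UVC-free sites was 147 (quartiles 72 and 301.5), against 304 (146 and 680) at 3-list sites and 60 (26 and 139) at UVA-only sites. Scores over 100 were reached by 63.3% of UVC-free sites, 84.1% of 3-list sites and 34.0% of UVA-only sites, beside 42.9% of all UVA sites. In the iCLIP list the medians were 60 at UVC-free sites (quartiles 31 and 117) and 94.5 at 3-list sites (46 and 198). Of the UVC-free sites, 3.20% scored 20 or less in UVA, 12.1% did so in iCLIP, and 90 sites (0.885%) did so in both, against 0.102% of 3-list sites in both. Both scores exceeded 100 at 2429 UVC-free sites (23.9%) and exceeded 500 at 82 (0.807%), against 44.0% and 4.47% of 3-list sites. Across the 10167 sites the 2 scores had a Spearman correlation of 0.373, and across the 3-list sites 0.391. The UVA score also rose with site width, at UVC-free sites (rho 0.358) and more so at 3-list sites (rho 0.493). All points come from the same 2 pooled lists, and RNA abundance was not measured.

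**Figure D1:**
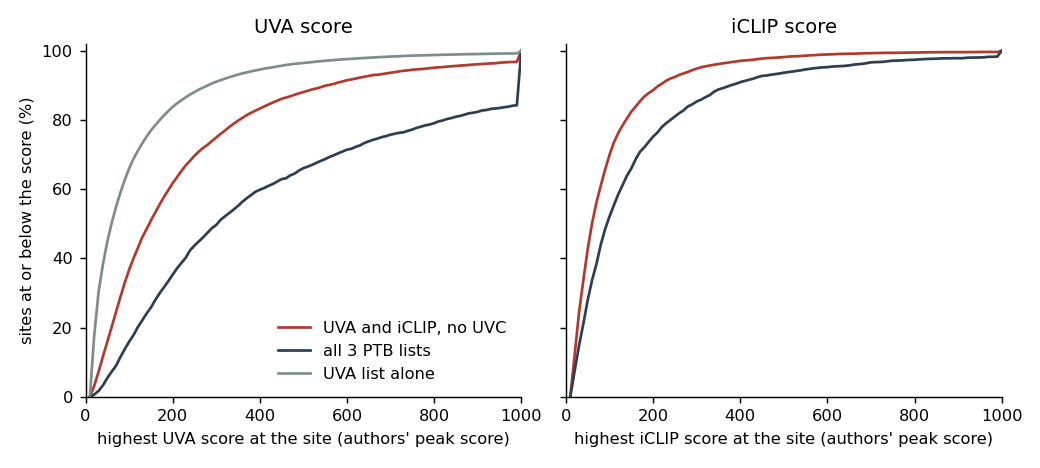
Cumulative share of sites (percent, vertical) at or below the highest authors' peak score at the site (horizontal), for the UVA score (left) and the iCLIP score (right). UVC-free sites (red) lie between 3-list sites (dark) and UVA-only sites (grey) in UVA score, with medians of 147, 304 and 60; the step at 1000 is the score limit.

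In width, too, UVC-free sites lay between the other classes. Their median width was 52 nt (quartiles 34 and 81), against 88 nt (54 and 148) at 3-list sites and 36 nt (23 and 52) at UVA-only sites. A single UVA peak formed 79.3% of UVC-free sites and 54.8% of 3-list sites. A wider site can meet another list more easily, so width and presence in UVC are tied by construction. The median difference from 3-list sites was -36 nt, or -58 nt when peaks within 50 nt were merged. iCLIP peaks covered a median of 31 nt of a UVC-free site, or 66.9% of its width, and covered the whole site at 2496 of them (24.6%). Contact of at most 10 nt was seen at 1193 sites (11.7%), against 5.83% of 3-list sites.

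The share of sites without a UVC peak fell with the strength of the other 2 lists. Among sites on an iCLIP peak and on no control peak, 94.5% (interval 91.5 to 96.6) had no UVC peak at UVA scores of 20 or less. The share was 87.3% at 51 to 100, 74.8% at 201 to 500, and 41.1% (interval 37.6 to 44.6) at the limit, or 41.2% among sites with a printed UVA score of 1000. By iCLIP score it went from 84.8% at 20 or less to 64.2% at 201 to 500 and 39.7% (interval 28.8 to 51.5, 78 sites) at the limit. By width it went from 89.8% at 30 nt or less to 49.3% over 150 nt. Within sites of 31 to 60 nt the fall with UVA score was shallower, from 93.8% at 20 or less to 74.6% (interval 62.9 to 84.2) at the limit. Within sites of 101 to 150 nt it was 79.1% (interval 64.0 to 89.96, 43 sites) at 21 to 50, 82.4% at 51 to 100 and 39.7% (interval 32.3 to 47.3) at the limit. Of 213 sites with both scores over 500, 82 (38.5%, interval 31.9 to 45.4) had no UVC peak. At 3-list sites the highest UVC score at the site had a median of 29 (quartiles 19 and 52), and 28.8% scored 20 or less. Single peaks of the whole UVC list had a median of 19. The 2 medians are not like measures, since the highest score of a site was set beside single peaks.

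**Figure D2:**
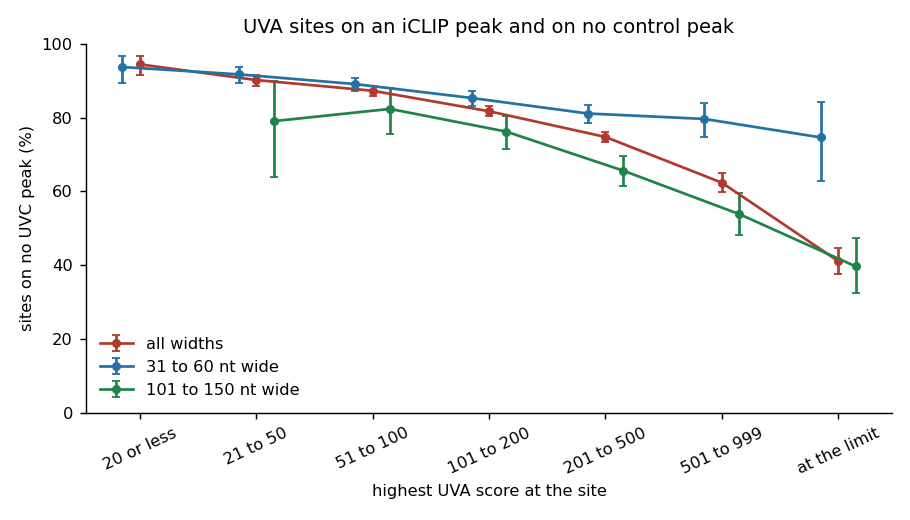
Share of sites on no UVC peak (percent, vertical) among UVA sites on an iCLIP peak and on no control peak, by band of the highest UVA score (horizontal); points are shares and bars exact 95% intervals for counting error. Over all widths (red) the share goes from 94.5% to 41.1%, while sites of 31 to 60 nt (blue) end at 74.6% and sites of 101 to 150 nt (green) at 39.7%.

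The UVA limit was shared by 318 UVC-free sites, so the 12 members named first were picked among these by iCLIP score. By that ranking they are the sites at the limit in both lists, and there are only 12 such sites. The site on chromosome 13 below is at the UVA limit, and the one at chrX:73061009-73061164 at the iCLIP limit, only by the assumption on scores of 0. Their widths ran from 29 to 248 nt, and iCLIP covered 5 of them whole. The widest was chrX:70524646-70524893 (plus strand, 248 nt), formed by 5 UVA peaks and met by 3 iCLIP peaks over 208 nt, with the nearest UVC peak 3642 nt away. The site at chr11:62566426-62566620 (minus, 195 nt) had iCLIP over 131 nt and its nearest UVC peak at 968 nt. The site at chr14:23535129-23535258 (minus, 130 nt) had a UVC peak of score 43 only 78 nt away.

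The surroundings of these 12 sites in the UVC list differed widely. For 4 of the 12 a UVC peak lay within 100 nt: besides the one on chromosome 14, these were chr19:36720078-36720126 (plus, UVC at 25 nt with score 101), chr17:59865320-59865367 (minus, 45 nt, score 44) and chr19:36716319-36716347 (plus, 50 nt, score 108). For 3 of the 12 no UVC peak lay within 10000 nt on that strand. These were chr17:1279500-1279624 (minus, 21889 nt to the nearest), chr13:41634861-41634936 (minus, 46351 nt) and chr4:82515383-82515455 (minus, 153482 nt). The site on chromosome 13 was covered whole by 4 iCLIP peaks, and iCLIP covered 66 nt of the 73 nt on chromosome 4. The remaining sites with both scores at the limit were chr15:89846685-89846764 (plus, covered whole, UVC at 3619 nt), chr10:96326819-96326854 (plus, covered whole, UVC at 354 nt) and chrX:73061009-73061164 (minus, 156 nt). The last shared 19 nt with iCLIP, had a control peak 63 nt away and a UVC peak of score 285 at 215 nt.

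The widest UVC-free site was chr17:40135667-40136186 (minus, 520 nt), with a UVA score of 443, an iCLIP score of 301 and iCLIP over 327 nt. It was followed by chr5:176928962-176929432 (minus, 471 nt), chr22:35807749-35808199 (plus, 451 nt), chr17:79836835-79837272 (minus, 438 nt) and chr1:44442955-44443371 (plus, 417 nt). iCLIP covered 296 nt of the last, and UVC peaks lay 109 nt to its 5' side and 393 nt to its 3' side, the nearer with a score of 13. The nearest UVC peak to the site on chromosome 5 lay 15622 nt away.

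Few sites lay exactly at the rule's edges, but more lay close to them. At most 10 nt was shared with iCLIP by 1193 UVC-free sites (11.7%), and 444 (4.37%) had a UVC peak within 20 nt. Only 76 UVC-free sites shared a single nt with iCLIP, the strongest being chr3:182515024-182515100 (plus, UVA score 631) and chr10:95457461-95457538 (minus, 436). A UVC peak touched 18 sites without sharing a nt, among them chr14:76640287-76640400 (plus, UVA score at the limit, UVC score 21) and chr9:6502359-6502484 (plus, 764 and 16). Just outside, 27 sites were left out for 1 nt shared with UVC, among them chr19:807533-807786 (plus) and chr5:175916376-175916470 (plus), both at the UVA limit. At 461 UVC-free sites (4.53%) a UVC peak lay on the same iCLIP site but beyond the UVA site.

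iCLIP sites lay toward the 5' side of the UVA sites they met. At UVC-free sites the midpoint of the highest-scoring iCLIP site was a median of 9.5 nt 5' of the UVA midpoint (an offset of -9.5 nt, interval -10 to -9, quartiles -27.5 and 4.5). With only UVA and iCLIP peaks scoring at least 100, a filter chosen after seeing the data, it was -15.25 nt. In the main setting it was on the 5' side at 6867 of 10167 sites (67.5%, interval 66.6 to 68.5), and within 20 nt at 55.7%. At 3-list sites the offset was -18.5 nt, but those are wider. Within sites of 31 to 60 nt it was -6.5 nt (interval -7 to -6, 3996 sites) at UVC-free sites and -11 nt (interval -13 to -8.5, 645 sites) at 3-list sites. Within 61 to 100 nt the values were -13.5 nt (interval -14.5 to -12.5) and -15.5 nt (interval -17.5 to -13.5), and over 100 nt -29.5 nt (interval -31.5 to -27) and -33 nt (interval -35.5 to -30), with intervals that overlapped. At sites of 61 to 100 nt both iCLIP edges lay upstream, the 5' edge by a median of -5 nt and the 3' edge by -20 nt. Over 100 nt the 3' edge lay at -59 nt and the 5' edge at 3 nt, slightly inside the UVA site. UVC sites at 3-list sites were also displaced to the 5' side, by a median offset of -9 nt (interval -10.5 to -7).

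**Figure D3:**
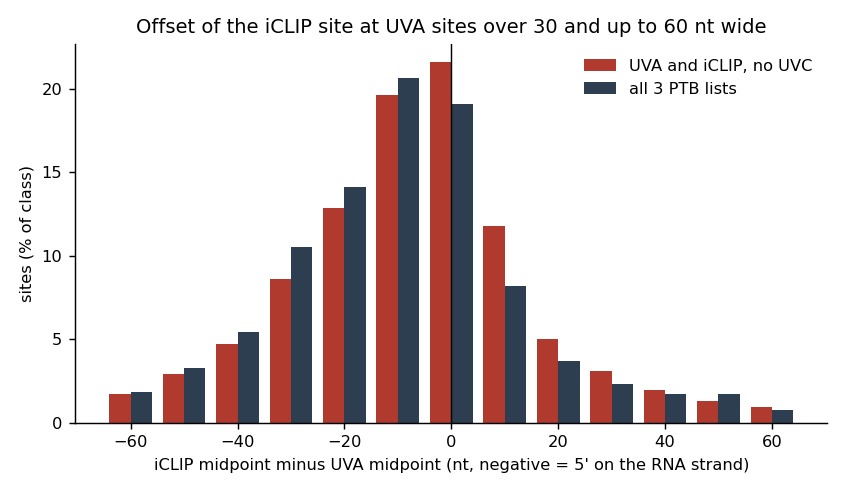
Share of sites (percent of each class, vertical) by distance of the iCLIP midpoint from the UVA midpoint (nt, horizontal, in bins of 10 nt, negative on the 5' side of the RNA), for UVA sites 31 to 60 nt wide. Both the 3996 UVC-free sites (red) and the 645 3-list sites (dark) lean to the 5' side, with medians of -6.5 and -11 nt.

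UVC peaks were often near UVC-free sites without sharing a nt with them. The nearest UVC peak on the same strand lay a median of 1167 nt away (interval 1104 to 1254, quartiles 223 and 4553), against 2488 nt (interval 2421 to 2548) for UVA-only sites. It was within 50 nt for 904 UVC-free sites (8.89%) and within 200 nt for 2392 (23.5%, interval 22.7 to 24.4). Applying the rule with only UVC peaks at or above their list's median score gave 10866 sites. Of that other set, which can hold sites on a lower-scoring UVC peak, 15.3% had such a UVC peak within 200 nt. Of all UVA sites on no UVC peak, 17.4% had one within 200 nt, and of UVA-only sites 16.0% did (interval 15.7 to 16.4). UVC-free sites exceeded UVA-only sites by 7.49 percentage points (normal 95% interval 6.61 to 8.37) at 200 nt, and by 14.8 points (interval 13.8 to 15.7) at 5000 nt. The difference was smaller among sites of like score. Within bands of the UVA score the difference at 200 nt was 6.05 points (interval 2.52 to 9.57) at 20 or less, 2.82 points (interval 0.899 to 4.74) at 51 to 100 and 2.36 points (interval 0.362 to 4.36) at 201 to 500. Above that it was 3.49 points (interval -0.215 to 7.20) at 501 to 999 and -1.64 points (interval -8.20 to 4.93) at the limit, so no difference was resolved for the strongest sites.

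The nearness was confined to the same strand in all 3 classes. On the opposite strand a UVC peak lay within 200 nt of 8 UVC-free sites (0.0787%), 0.320% of UVA-only sites and 0.102% of 3-list sites. Within 1000 nt it did so for 62 UVC-free sites (0.610%), against 4824 (47.4%) on the same strand. At the far end, 2413 UVC-free sites (23.7%) had no UVC peak within 5000 nt and 392 (3.86%) had none within 50000 nt, compared with 38.5% and 11.0% of UVA-only sites. Among 3-list sites, 30.5% had a further UVC site, sharing no nt with them, within 200 nt (interval 28.8 to 32.2), which is 6.96 points above UVC-free sites (interval 5.11 to 8.82). These 2 classes were not matched for UVA score or width. Among UVC-free sites alone the share within 200 nt was 11.7% at UVA scores of 20 or less, 27.7% at 201 to 500 and 24.2% at the limit. UVC peaks within 200 nt of UVC-free sites had a median score of 21 (quartiles 16 and 31), the same values as near UVA-only sites. A control peak lay within 200 nt of 96 UVC-free sites (0.944%), against 2.18% of 3-list sites and 0.687% of UVA-only sites. The control lists are short, with 2341 merged sites without UV and 1080 for YFP, against 80531 for UVC. Few control peaks could therefore lie near any class.

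**Figure D4:**
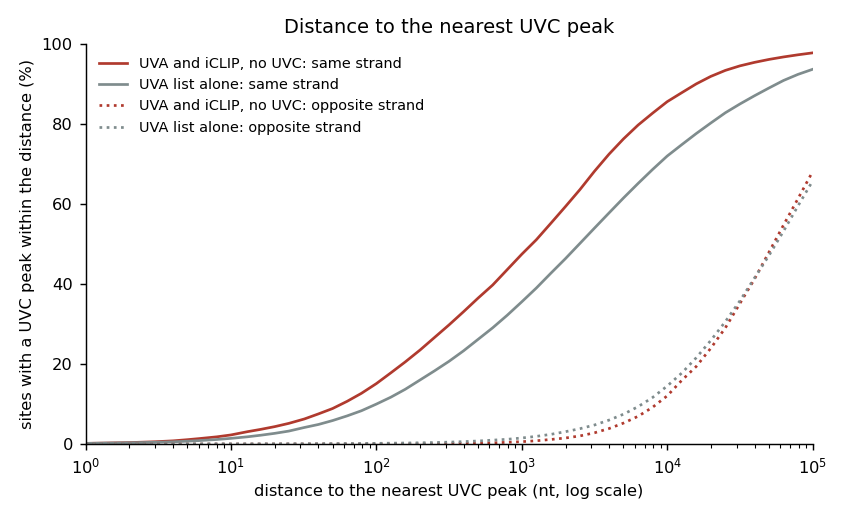
Share of sites (percent, vertical) with a UVC peak within a given distance (nt, horizontal, log scale) on the same strand (solid) or the opposite strand (dotted), for UVC-free (red) and UVA-only (grey) sites. At 200 nt the same-strand shares are 23.5% and 16.0%; the opposite-strand curves stay below 1% at that distance.

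The side of the nearest UVC peak differed between the classes, which were not matched here for UVA score or width. Within 200 nt it lay 5' of 1114 of 2392 UVC-free sites (46.6%, interval 44.6 to 48.6) and 5' of 54.9% of UVA-only sites (interval 53.8 to 56.0), a difference of -8.33 points (interval -10.6 to -6.06). From 1 to 50 nt the shares were 51.2% and 61.3%, and from 51 to 100 nt 42.2% and 52.9%. From 101 to 200 nt they were 44.9% and 50.03%. From 201 to 500 nt the shares were 46.2% and 49.1%, with an interval of the difference that held 0 (-5.91 to 0.130), and from 501 to 1000 nt 45.4% and 49.8% (difference -4.40 points, interval -7.65 to -1.16).

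UVC-free sites fell among other UVA sites. The next UVA site of any class lay a median of 192 nt away, and within 200 nt for 50.7%, against 56.9% of 3-list sites and 36.3% of UVA-only sites. The next UVC-free site lay within 200 nt for 22.5% and within 1000 nt for 36.9%. The next site of the same class lay within these distances for 28.2% and 52.1% of UVA-only sites, and for 10.95% and 20.4% of 3-list sites. The classes differ in size, which bears on these shares. A 3-list site was within 1000 nt of 1287 UVC-free sites (12.7%) and within 10000 nt of 2673 (26.3%).

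Shares of UVC-free sites per chromosome are set beside those of the 3-list sites. By the rule these 2 classes differ only in meeting a UVC peak. Their differences per chromosome therefore depend on where the UVC list has peaks and are not independent of the rule. Chromosome 19 held 993 UVC-free sites (9.77%, interval 9.20 to 10.4), beside 8.70% of all UVA sites, 6.46% of iCLIP sites and 4.20% of UVC sites. 3-list sites on chromosome 19 made up 9.75%, a difference of 0.0125 points (interval -1.21 to 1.23). The share of sites without UVC, among those on iCLIP and no control, was 77.6% there (interval 75.3 to 79.9), the same as over all chromosomes (77.6%, interval 76.9 to 78.3). UVC-free sites were more frequent than 3-list sites on chromosomes 16 (5.64% and 4.06%, difference 1.58 points, interval 0.734 to 2.42), 14 (3.69% and 2.56%, 1.13 points, interval 0.452 to 1.81), 20 (2.57% and 1.60%, 0.964 points, interval 0.415 to 1.51) and 15 (4.07% and 3.21%, 0.866 points, interval 0.122 to 1.61). They were less frequent than 3-list sites on chromosomes 1 (11.3% and 13.03%, -1.76 points, interval -3.12 to -0.392), 6 (3.49% and 4.81%, -1.32 points, interval -2.17 to -0.465) and 10 (3.30% and 4.16%, -0.856 points, interval -1.66 to -0.0542). These intervals are not adjusted for the number of chromosomes compared. Of all UVA sites, 10.7% lay on chromosome 1, 3.69% on 6 and 3.22% on 10. Against these shares, UVC-free sites were slightly higher on chromosomes 1 and 10 and lower on 6. Chromosomes 16, 14, 20 and 15 held 5.21%, 3.39%, 2.25% and 3.64% of all UVA sites, each below the UVC-free share. Of UVC sites, 2.90%, 3.41%, 2.30% and 3.84% lay on these chromosomes, and 10.55%, 5.12% and 4.685% on chromosomes 1, 6 and 10. The share of sites without UVC ran from 71.6% on chromosomes 6 (interval 67.4 to 75.5) and 13 (interval 64.2 to 78.3) to 84.7% on chromosome 20 (interval 80.2 to 88.6). No UVC-free site lay on chromosome Y.

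In windows of 100 kb on one strand, UVC-free sites filled 4764 windows, 2447 of them with 1 site and 437 with at least 5. The 10 windows with the most held 142 sites (1.40%). The window chr16:30700001-30800000 (plus strand) held the most, with 19 UVC-free and 2 3-list sites among 50 UVA, 42 iCLIP and 27 UVC sites, and 3 control sites. The window chr11:65100001-65200000 (plus) held 17, with 10 3-list sites. The window chr19:59000001-59100000 (minus) held 16 among 37 UVA and 20 iCLIP sites, with 7 UVC sites and a single 3-list site. The window chr14:21900001-22000000 (minus) held 15 with 19 UVC sites, and chr11:6500001-6600000 (plus) held 14 with 39 iCLIP and 6 UVC sites. None of the last 4 windows held a control site. UVC sites were present in each of the 5 windows, and 94.95% of UVC-free sites lay in windows with at least 1 UVC site. 3-list sites shared a window with 40.96% of UVC-free sites. Neither share was computed for other UVA sites, so neither can be called particular to UVC-free sites.

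**Figure D5:**
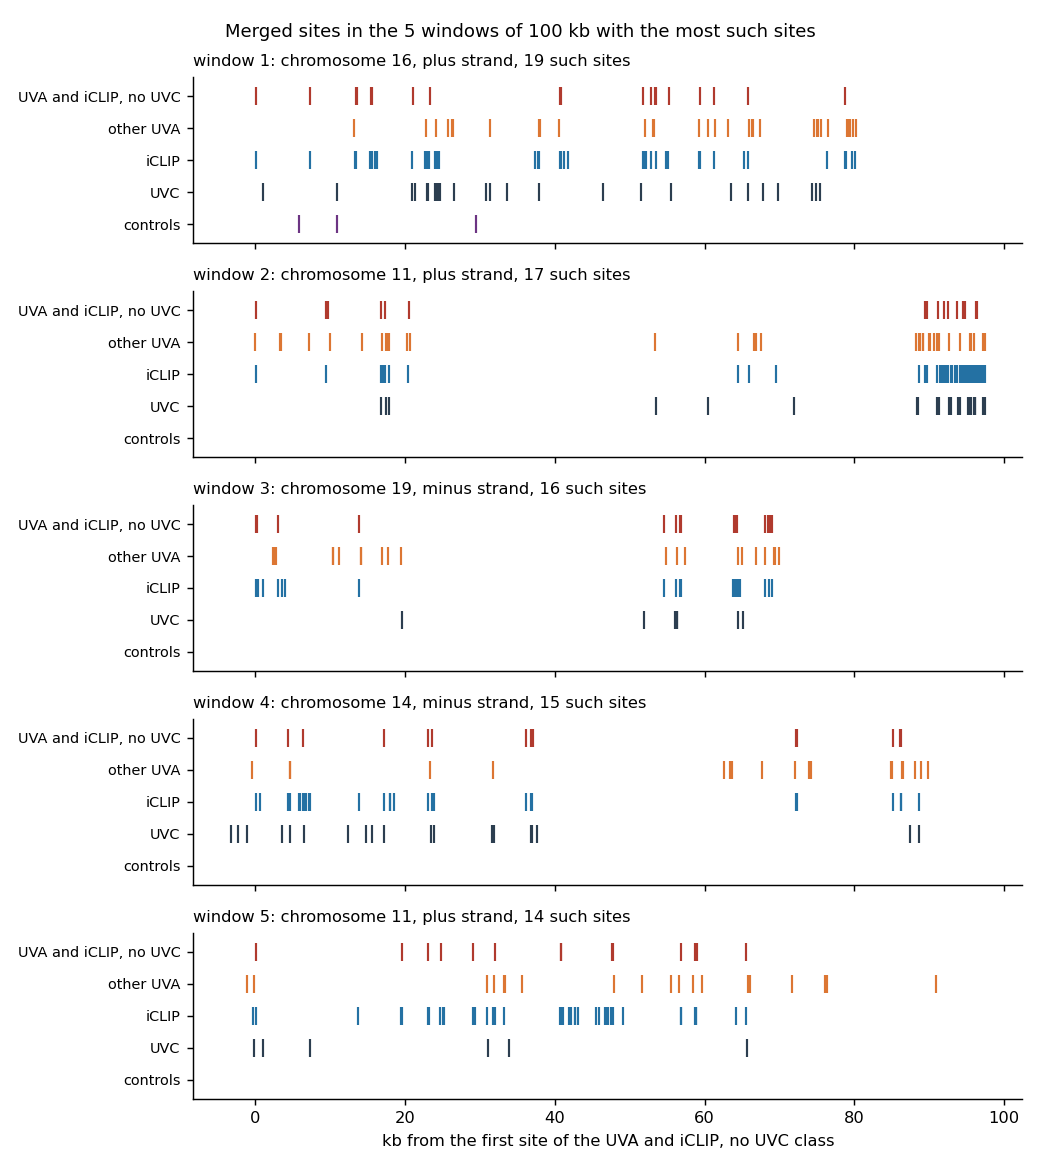
Positions of merged sites (ticks) along the 5 windows of 100 kb with the most UVC-free sites, in kb from the first such site; rows are UVC-free sites, other UVA sites, iCLIP sites, UVC sites and sites of both control lists. The windows hold 19, 17, 16, 15 and 14 UVC-free sites, and every window also holds UVC sites.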

How the data were processed

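Peak lists of 8 samples in 4 groups of 2, pooled to 1 list per group, and the submitters' iCLIP list were used. The submitters' processing notes name Bowtie 1.1.2 for mapping and, without a role, the builds hg19 and dm3. Positions were read as hg19, since 22 UVA and 8 iCLIP peaks on chromosome 1 lie past the last GRCh38 gene of that chromosome. How peaks were called, filtered and pooled is not given in these sources. The deposited score equals 10 times the negative log10 of the deposited p-value, rounded down, at 97.6% of UVA and 98.5% of iCLIP peaks with a p-value above 0. The p-value is 0 at 31203 of 83725 UVA peaks and 8554 of 58213 iCLIP peaks, where the relation could not be checked. Peaks with score and p-value 0 were set to the limit of 1000.

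Positions are 1-based. A distance of 1 nt means touching. Merged sites keep their highest score. Shares carry exact Clopper-Pearson 95% intervals, differences normal ones, and medians order-statistic ones, all for counting error with sites taken as independent, which close sites and repeated intervals are not. No p-value was computed, since each group is 1 list. bedtools 2.31.1 gave the same 10167 members, and the overlap and distance functions were checked on simulated peaks. Python 3.11.15, numpy 2.4.6, pandas 2.3.3 and scipy 1.17.1 were used.

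Named sites are the 12 with the highest UVA score (ties by iCLIP score, width and position), the 5 widest, those with the most iCLIP peaks, the 5 fullest windows and the strongest sites at the rule's edges. Gene, motif and sequence results that were planned were left out, because no hg19 genome or annotation was used here. Members, bands and classes were chosen with earlier results of these data known.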

Additional observations from a re-analysis of the deposited data

How the results depend on the processing

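In 80 recomputations (8 results under 10 alternatives) none changed direction, and 51 stayed within the interval of the main value, or within 1.5 times it for the count of sites. A count or a share cannot change direction, so that part bears only on the differences and the offset. Keeping only chromosomes 1 to 22 and X, or listing each interval a single time, returned every main value, and these recomputations are among the 51. The other 29 recomputations are these. With peaks merged only where they touch, the median width difference from 3-list sites was -30 nt (main value -36), 24.6% of UVC-free sites had UVC within 200 nt and the iCLIP offset was -8.5 nt. With merging within 50 nt these were -58 nt, 20.97% and -11.5 nt, the share of UVA and iCLIP sites without UVC was 75.02%, and the excess over UVA-only sites at 200 nt was 6.60 points. With at least 50% of the site covered by iCLIP, 6708 sites were left, 78.4% were without UVC, the width difference was -26 nt and the offset -6.5 nt. With UVC and controls kept 50 nt away, 70.1% were without UVC, and 16.0% had UVC within 200 nt, an excess of 5.22 points. With UVA and iCLIP peaks at or above their median score, 4701 sites were left, 69.9% were without UVC, 28.5% had UVC within 200 nt (excess 5.47 points) and the offset was -12.5 nt. With UVC peaks at or above their median score, 82.3% were without UVC, the UVA score difference was -197 (main value -157), and 15.3% had UVC within 200 nt (excess 5.10 points). With UVA and iCLIP peaks scoring at least 100, chosen after seeing the data, 2482 sites were left, 65.3% were without UVC, the score difference was -217.5, 31.1% had UVC within 200 nt and the offset was -15.25 nt. The share of UVC-free sites on chromosome 19 stayed between 9.48% and 10.05%. Alternatives for sequence windows and annotation order were not run, since no hg19 genome was used here. No paired analysis was possible because each group has 1 pooled list without replicate columns, and no replicate could be left out. Depth is unknown, so an absent UVC peak is a position where none was called, not a position shown to lack binding.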

Other observations

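UVC sites were absent from 363 of the 4764 windows with a UVC-free site (7.62%), which held 513 such sites (5.05%). Only 3 of these windows held at least 5. They were chr16:18700001-18800000 (minus strand, 6 UVC-free sites among 15 UVA and 11 iCLIP sites), chr6:3200001-3300000 (plus, 6 among 21 UVA and 10 iCLIP sites) and chr11:117000001-117100000 (minus, 5 among 21 UVA and 12 iCLIP sites). None held a control site. These windows were picked after their values were seen. The share of windows without UVC was not computed for other UVA sites.

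The largest number of iCLIP peaks at a UVC-free site was 21, at chr5:140875573-140875661 (plus strand), but these are 3 different intervals listed repeatedly. Counting each interval a single time, the most was 5, at chr14:24658441-24658712 (minus, UVA score 823) and at chr19:5681518-5681922 (plus, UVA score at the limit, 405 nt wide, nearest UVC peak at 8623 nt).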
